A study of Homo sapiens with 29 samples.

Results

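KMO (kynurenine 3-monooxygenase) and 5 other enzymes that break down tryptophan through kynurenine, KYNU, IDO1, TDO2, HAAO and QPRT, were followed in 2 diffuse large B-cell lymphoma lines given a SYK inhibitor. The 6 genes were measured by 11 probe sets, out of 12165 genes on the array. KMO was chosen by its values, as the gene with the largest shared fall under the inhibitor, so its levels and differences are given as a description with no test. The 5 others were taken by their place in the pathway, with earlier results of these data known, so their tests may not be free of that choice. Differences in them were tested with limma and called at an adjusted p below 0.05. P-values were adjusted over all 12165 genes by the Benjamini-Hochberg method.

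DHL4 and DHL6 are established human cell lines of diffuse large B-cell lymphoma. Cultures of each line, in RPMI medium with serum and glutamine, received either R406 at 1 µM or its vehicle DMSO, and total RNA was hybridised to Affymetrix HT_HG-U133A arrays. R406 is a small-molecule inhibitor of SYK, the kinase that relays the signal of the B-cell receptor. Each line had R406 arrays at 2, 6, 24 and 48 h, with 3 arrays at each time, and DMSO arrays whose labels carry no time, of which DHL6 had 3 and DHL4 had 2. All 4 R406 times of a line are therefore set against the same DMSO arrays, and the comparisons within a line share those controls. The design text lists a 0 h time and triplicates, and does not say when the DMSO arrays were taken. An effect of R406 and one of time in culture therefore cannot be told apart. The labels do not say whether replicates came from separate cultures, so p-values here reflect array-to-array spread, part or all of which could be technical. The design compares R406 with vehicle over time in the lines, and values are log2 intensities.

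The kynurenine pathway takes up most of the tryptophan that cells do not build into protein. IDO1 or TDO2 opens the tryptophan ring, the product is trimmed to kynurenine, KMO hydroxylates kynurenine, and KYNU cleaves the hydroxylated product. HAAO then opens the ring of 3-hydroxyanthranilate, which gives quinolinate, and QPRT turns quinolinate into a precursor of NAD. KMO is a flavoprotein of the outer mitochondrial membrane. KYNU works with pyridoxal phosphate, the active form of vitamin B6. In the body TDO2 is best known from liver and IDO1 from cells exposed to interferon-gamma.

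The stretches of genome just upstream of KMO and KYNU are shown because these were the pathway genes whose RNA was lower with R406 in both lines. They are the 250 bases before the RefSeq transcription start, 5′ to 3′ on the gene's strand, in GRCh38.p14: chr1:241532128-241532377 on the plus strand for KMO and chr2:142877414-142877663 on the plus strand for KYNU. Capitals mark matches, on either strand, to 5 searched motifs.
KMO: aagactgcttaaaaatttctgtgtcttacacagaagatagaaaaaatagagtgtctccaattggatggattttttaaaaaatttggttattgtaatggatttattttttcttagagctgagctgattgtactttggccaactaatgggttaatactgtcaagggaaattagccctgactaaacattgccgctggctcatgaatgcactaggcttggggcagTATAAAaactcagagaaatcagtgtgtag
KYNU: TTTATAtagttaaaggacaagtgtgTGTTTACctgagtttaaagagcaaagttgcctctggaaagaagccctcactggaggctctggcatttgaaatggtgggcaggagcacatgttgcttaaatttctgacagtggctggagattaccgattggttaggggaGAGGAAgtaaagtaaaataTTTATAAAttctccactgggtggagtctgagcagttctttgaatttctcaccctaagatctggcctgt
The first motif was GAGGAA, the core bound by PU.1 and other ETS factors. The second was the interferon-stimulated response element. A forkhead core was searched as GTAAACA. The E-box of MYC and related factors was searched as CACGTG, and the TATA box as TATAAA. KMO held 1 match, a TATAAA that begins 29 bases before the start. Among 35116 RefSeq promoter windows of this length, 10.7% held TATAAA. KYNU held TATAAA 3 times, 250, 68 and 66 bases before the start, of which the last 2 overlap on opposite strands. It also held GTAAACA 225 bases and GAGGAA 87 bases before the start, which 3.0% and 23.6% of windows held. Neither window held CACGTG or the interferon element, found in 6.3% and 3.0% of windows. RefSeq windows were matched for 5 of the 6 genes, all except IDO1. The TDO2 window held TATAAA 216 bases before the start, 1 QPRT window held GAGGAA 155 bases before it, and the HAAO window held none of the 5. These matches describe letters in these windows and do not show that a factor binds.

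All 29 arrays had medians between 3.11 and 3.27 over all probe sets. Replicate arrays correlated at 0.978 to 0.996 across the 12165 gene values, with the lowest correlations among the DHL6 arrays at 48 h. Replicate 2 of DHL6 at 48 h stood apart for KMO and, less far, for KYNU, so the main results on that group are given with and without it. The lines carried RNA of B-cell markers: MS4A1 (CD20) had group means of 9.04 to 11.67 and CD79A of 8.30 to 9.71. Of 8 B-cell markers 6 were measured, and their summed log2 level was 47.5 to 51.6 across the 10 groups. PAX5, a defining B-cell factor, was dim at 2.59 to 3.03. All 7 T-cell markers lay between 2.39 and 3.29 (sum 19.1 to 19.9), and the 8 measured monocyte and macrophage markers between 2.52 and 3.33 (sum 22.0 to 23.7). The 6 dendritic-cell markers lay between 2.43 and 3.27 (sum 16.4 to 17.5), and the 6 fibroblast and endothelial markers between 2.53 and 3.49 (sum 17.4 to 18.1). As a measure of the dim end of the arrays, 34 probe sets of 22 genes typical of liver, pancreas, pituitary, heart and eye had group means of 2.56 to 3.15 from the 5th to the 95th percentile, with a median of 2.84.

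Across the pathway KMO was lower with R406 at every time and KYNU at some times. HAAO, between KYNU and QPRT, had no called R406 difference. The first enzymes were at the dim end of the arrays with and without R406. KMO was lower on every R406 array of both lines, by 3.41- to 6.64-fold in DHL4 and 5.08- to 31.6-fold in DHL6. KYNU, the next enzyme, fell about 2-fold in both lines, later in DHL4 than in DHL6. QPRT, the last enzyme, fell in DHL4 at 6 and 48 h and had no call in DHL6, where its DMSO mean was 3.84 against 5.53 in DHL4. IDO1 and TDO2 were at or below 3.15, the top of the dim range, on 29 and 28 of 29 arrays.

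Of the 5 tested enzymes, none was called at 2 h in DHL4, where 9.48% of all genes were called in either direction and 6.81% as lower; at an unadjusted p below 0.05 there were 2, QPRT and TDO2. In DHL4 1 was called lower at 6 h (QPRT, against 12.8% of genes, 6.36% lower), 1 at 24 h (KYNU, against 29.5%, 16.5% lower) and 2 at 48 h (KYNU and QPRT, against 7.33%, 3.80% lower). In DHL6 none was called at 2 h, where 5.29% of genes were called, 3.16% as lower, and KYNU alone had an unadjusted p below 0.05. KYNU alone was called lower in DHL6 at 6 h (8.26% of genes called, 5.12% lower), 24 h (14.4%, 8.17% lower) and 48 h (23.3%, 14.9% lower). Every call was thus a fall. A single call among 5 genes is a share near the background of lower calls at 24 h in DHL4 and at 48 h in DHL6. The median change over the 5 was between -0.25 and 0.14 in the 8 comparisons, against medians of 0.01 to 0.04 over all genes.

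**Figure D1:**
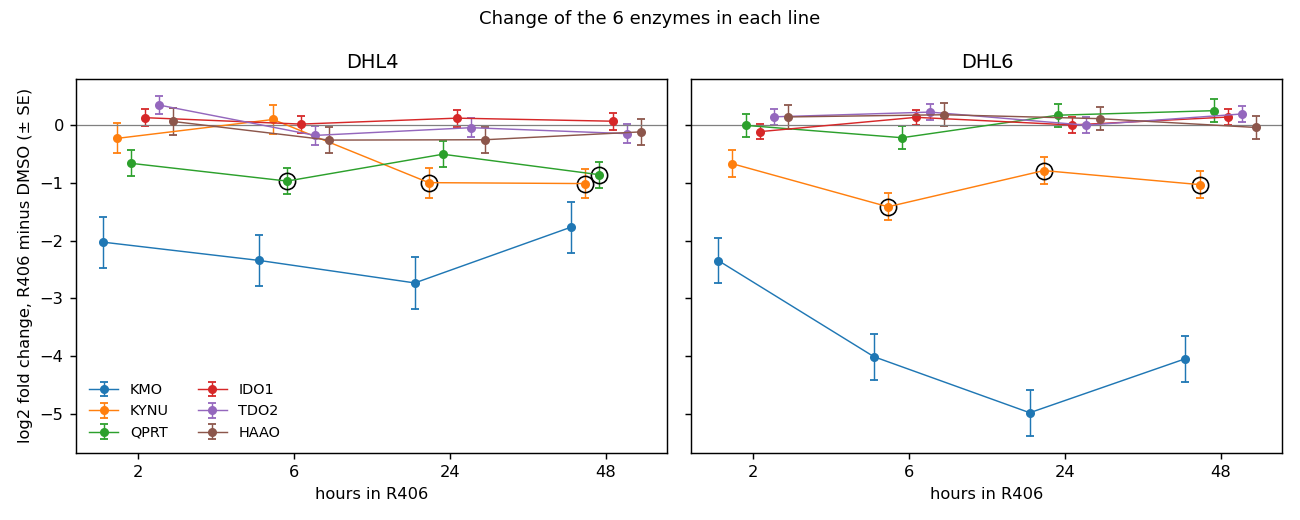
Change of each of the 6 enzymes under R406 relative to DMSO, as log2 fold change (vertical axis) against hours of R406 for DHL4 and DHL6, with bars for the standard error from the fit and circles around changes called at an adjusted p below 0.05. KMO lies farthest below 0 in both lines and has no test. KYNU is circled at 24 and 48 h in DHL4 and at 6, 24 and 48 h in DHL6, and QPRT at 6 and 48 h in DHL4.

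KMO adds a hydroxyl group to kynurenine and so directs it toward NAD. In DHL6 the 3 DMSO arrays read 8.39, 8.43 and 8.37, a mean of 8.40 ± 0.03 (SD, n = 3). In DHL4 the 2 DMSO arrays read 6.70 and 6.64, a mean of 6.67 ± 0.04 (SD, n = 2). Before R406 KMO was thus 1.73 higher in DHL6 on the log2 scale, or 3.32-fold, and the arrays of the lines did not overlap.

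By 2 h of R406 the DHL4 arrays read 4.52, 4.88 and 4.53, all below both DMSO arrays. At 6 h they read 4.14, 4.26 and 4.57, and at 24 h 4.19, 4.06 and 3.55, the lowest group of this line. At 48 h they read 5.17, 5.14 and 4.39, of which the first 2 were above every DHL4 array of 2, 6 and 24 h. The log2 differences from DMSO were -2.03, -2.34, -2.73 and -1.77 at 2, 6, 24 and 48 h (SE 0.44), or 4.07-, 5.07-, 6.64- and 3.41-fold lower. Most of the difference seen in DHL4 was there at the first time measured.

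In DHL6 the 2 h arrays read 6.12, 5.80 and 6.24, and the 6 h arrays 4.65, 4.43 and 4.08. At 24 h they read 3.76, 3.21 and 3.28, close to the dim end of the arrays. The log2 differences were -2.34, -4.01 and -4.98 at 2, 6 and 24 h (SE 0.40), or 5.08-, 16.1- and 31.6-fold lower. Every step from DMSO to 2, 6 and 24 h was downward without overlap of arrays. At 48 h the arrays read 3.21, 6.00 and 3.84, so replicates 1 and 3 were near the 24 h level and replicate 2 near the 2 h level. The difference at 48 h was -4.04 with all 3 arrays (16.5-fold lower), -4.87 without replicate 2 and -3.48 without replicate 1. The arrays measure pooled RNA of a culture, so less KMO RNA in every cell and fewer cells with KMO RNA cannot be told apart.

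**Figure D2:**
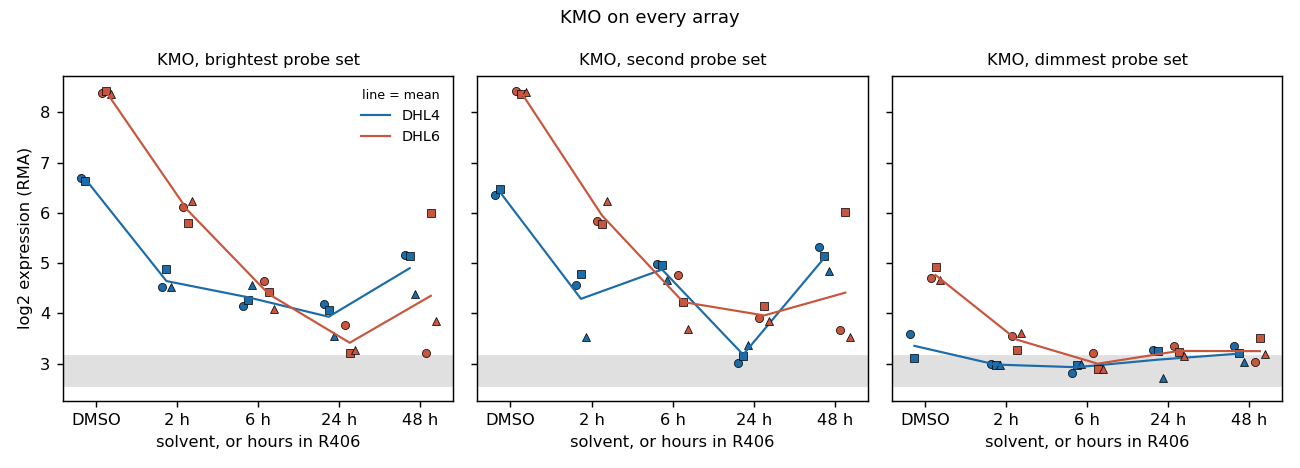
KMO log2 intensity (vertical axis) on every array, for its 3 probe sets, by line and by DMSO or hours of R406; circles, squares and triangles are replicates 1, 2 and 3, and the grey band is the dim range of 2.56 to 3.15. On 205306_x_at the DHL6 arrays go from 8.37 to 8.43 in DMSO to 3.21 to 3.76 at 24 h, and replicate 2 of DHL6 at 48 h stands at 6.00.

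Ordered by mean, KMO was highest in DHL6 with DMSO (8.40), then DHL4 with DMSO (6.67) and DHL6 at 2 h (6.05 ± 0.23), and these 3 groups did not overlap each other. Below them only DHL6 at 48 h overlapped one of the 3, with its replicate 2 (6.00) inside the DHL6 2 h range. The next were DHL4 at 48 h (4.90 ± 0.44), DHL4 at 2 h (4.64 ± 0.21) and DHL6 at 6 h (4.39 ± 0.29). DHL6 at 48 h (4.35 ± 1.46), DHL4 at 6 h (4.32 ± 0.22), DHL4 at 24 h (3.94 ± 0.34) and DHL6 at 24 h (3.42 ± 0.30) followed (SD, n = 3 each). From DHL4 at 48 h downward, each group overlapped the next in its array values. At 24 h the mean of DHL6 was below that of DHL4 on this probe set. On 211138_s_at the order was the opposite, with DHL6 at 3.84 to 4.14 and DHL4 at 3.02 to 3.37, so the order of the lines at 24 h depends on the probe set.

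The difference between the lines' responses, DHL6 minus DHL4, was -0.32 at 2 h, -1.67 at 6 h, -2.25 at 24 h and -2.28 at 48 h (SE 0.60). Without replicate 2 of DHL6 at 48 h, the last value was -3.10. The change from 24 to 48 h was 0.96 in DHL4 and 0.94 in DHL6 (SE 0.40). In DHL6 that value came from replicate 2: it was 0.11 without that array and 1.51 without replicate 1. These are values of 205306_x_at. The response differences at 2, 6, 24 and 48 h were -0.32, -2.63, -1.20 and -2.67 on 211138_s_at and -0.92, -1.34, -1.24 and -1.36 on 205307_s_at. On 205306_x_at DHL6 went from a DMSO mean of 8.40 to 3.42 at 24 h, and DHL4 from 6.67 to 3.94, with the dim range ending at 3.15. How far starting level and dim range shape the response differences was not tested.

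The values that chose KMO were its ranks among genes lower in both lines by the mean of the 2 log2 differences. At 2 h KMO had rank 5 of 3463 genes with a mean of -2.18, beside CD72 (-2.24), PHACTR1 (-2.21) and SLC2A6 (-2.18). It had rank 1 of 3109 at 6 h, with -3.18 against -2.78 for PHACTR1, -2.69 for LIMA1 and -2.55 for PTPN6. At 24 h it had rank 1 of 3442, with -3.86 against -3.20 for LIMA1, -3.13 for PLEK and -3.02 for PHACTR1. At 48 h it had rank 1 of 3221, with -2.91 against -2.70 for PHACTR1, -2.41 for LMO2 and -2.24 for ATF5. Without replicate 2 of DHL6 it kept rank 1 at 48 h, of 3207 genes, with -3.32. These ranks restate the choice of KMO and support nothing further.

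KMO was read by 3 probe sets, of which the values above are those of 205306_x_at. The suffix _x_at is Affymetrix's mark for probes that may also match other transcripts, so the second bright probe set, 211138_s_at, was set beside it. In DHL6 it read 8.43, 8.37 and 8.40 with DMSO and 3.90, 4.14 and 3.84 at 24 h. In DHL4 it read 6.36 and 6.47 with DMSO and 3.02, 3.15 and 3.37 at 24 h. Its differences from DMSO were -2.13, -1.54, -3.24 and -1.32 in DHL4 and -2.45, -4.17, -4.44 and -3.99 in DHL6 (-4.79 at 48 h without replicate 2). At 48 h it also had replicate 2 of DHL6 high, at 6.02, against 3.68 and 3.54. No R406 array of either line reached the DMSO arrays on this probe set.

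The third, 205307_s_at, was dim: 12 of its 29 arrays were at or below 3.15. It read 4.70, 4.92 and 4.67 in DHL6 with DMSO and 2.89 to 3.62 on the DHL6 arrays of 2 to 48 h. Its differences in DHL6 were -1.29, -1.76, -1.51 and -1.51 (-1.65 at 48 h without replicate 2). In DHL4, where it read 3.59 and 3.12 with DMSO, they were -0.37, -0.42, -0.27 and -0.15, and the R406 arrays of 24 and 48 h overlapped DMSO. After the mean of each line was subtracted, the 3 probe sets correlated with each other at 0.95, 0.86 and 0.83 over the 29 arrays, which share group means.

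KYNU, kynureninase, cleaves the product of KMO to 3-hydroxyanthranilate. Its brightest probe set, 217388_s_at, read 6.94 and 6.91 in DHL4 with DMSO, then 6.70, 6.85 and 6.54 at 2 h and 7.08, 7.01 and 6.99 at 6 h. At 24 h the DHL4 arrays read 5.80, 5.99 and 6.01, and at 48 h 6.03, 6.24 and 5.47. The level was thus near that of DMSO at 6 h and below it on every array at 24 and 48 h. The fall was -0.995 ± 0.26 (log2 fold change ± SE) at 24 h, or 1.99-fold (limma, adjusted p = 0.00364), and -1.01 ± 0.26 at 48 h, or 2.02-fold (limma, adjusted p = 0.0139). At 2 and 6 h the values were -0.23 (limma, adjusted p = 0.69) and 0.10 (limma, adjusted p = 0.94). The 48 h call in DHL4 was lost without DMSO replicate 1 (-0.995, limma adjusted p = 0.107), DMSO replicate 2 (-1.03, 0.105) or 48 h replicate 3 (-0.79, 0.099). The 24 h call held without any 1 array.

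In DHL6 KYNU read 6.44, 6.51 and 6.51 with DMSO and 5.62, 5.88 and 5.96 at 2 h. At 6 h it read 5.57, 5.19 and 4.47, the lowest group of this gene, and at 24 h 6.03, 5.65 and 5.43. At 48 h the arrays read 5.31, 6.01 and 5.05, again with replicate 2 highest. Every R406 array of DHL6 was below its DMSO arrays. The fall was -1.41 ± 0.23 at 6 h, or 2.66-fold (limma, adjusted p = 0.000126), -0.79 ± 0.23 at 24 h, or 1.72-fold (limma, adjusted p = 0.0203), and -1.03 ± 0.23 at 48 h, or 2.04-fold (limma, adjusted p = 0.00173). Without replicate 2 the 48 h value was -1.31 (limma, adjusted p = 0.000121). With each array left out in turn, the 48 h value ran from -1.31 to -0.83 (limma, largest adjusted p = 0.0192). The value at 2 h was -0.67 (limma, adjusted p = 0.114). The 24 h call was lost without DMSO replicate 1, 2 or 3 (limma, adjusted p = 0.0502, 0.0625 and 0.0595), 24 h replicate 2 (0.0671) or 24 h replicate 3 (0.116).

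**Figure D3:**
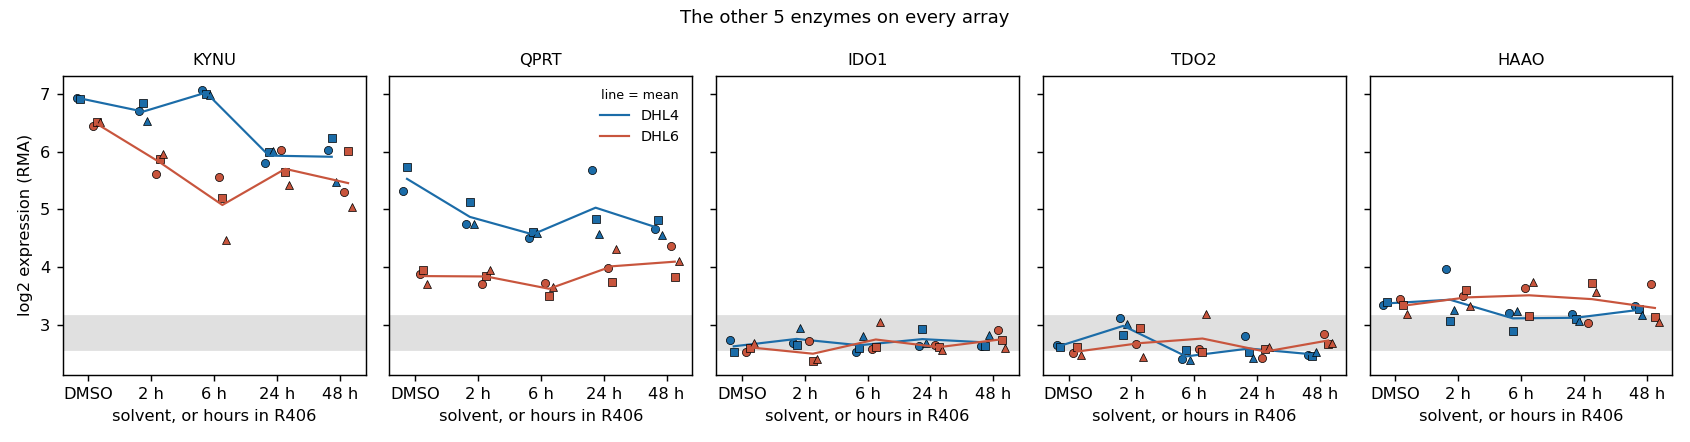
Log2 intensity (vertical axis) of KYNU, QPRT, IDO1, TDO2 and HAAO on every array, by line and by DMSO or hours of R406, with the dim range of 2.56 to 3.15 in grey and replicates 1, 2 and 3 as circles, squares and triangles. KYNU in DHL6 is lowest at 6 h (4.47 to 5.57), QPRT is higher in DHL4 than in DHL6, and IDO1 and TDO2 lie in or below the grey band apart from 1 TDO2 array at 3.18.

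The lines differed in when KYNU fell. At 6 h the response of DHL6 minus that of DHL4 was -1.51 ± 0.35 (limma, adjusted p = 0.00598, with 7.04% of genes called), and all 3 DHL6 arrays were below their controls while all 3 DHL4 arrays were above theirs. With each array left out in turn this difference stayed between -1.76 and -1.21 and was called each time. At 2, 24 and 48 h it was -0.44, 0.21 and -0.02 (SE 0.35; limma, adjusted p = 0.754, 0.824 and 0.987). No line difference was called for KYNU with DMSO (-0.44 ± 0.26, DHL6 minus DHL4; limma, adjusted p = 0.303). Between 24 and 48 h KYNU moved by -0.02 in DHL4 and -0.24 in DHL6 (limma, adjusted p = 0.981 and 0.599).

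By group mean KYNU ran from 7.03 ± 0.04 in DHL4 at 6 h through 6.93 ± 0.02 with DMSO and 6.70 ± 0.15 at 2 h in the same line to 6.49 ± 0.04 in DHL6 with DMSO. These groups did not overlap each other. DHL4 at 24 h (5.93 ± 0.11) and 48 h (5.91 ± 0.40) and DHL6 at 2 h (5.82 ± 0.18), 24 h (5.70 ± 0.30), 48 h (5.46 ± 0.50) and 6 h (5.07 ± 0.56) came below them, and each of these overlapped the next (SD, n = 3, and 2 for DHL4 with DMSO).

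The 3 other KYNU probe sets were dimmer. For 210663_s_at the falls called were those at 24 h (-0.49; limma, adjusted p = 0.0437) and 48 h (-0.62; 0.0347) in DHL4 and at 6 h (-0.65; 0.01) and 48 h (-0.69; 0.00242) in DHL6 (-0.66 and 0.00814 without replicate 2). At 24 h in DHL6 it gave -0.19 (limma, adjusted p = 0.586), so that call was not shared. For 204385_at DHL6 at 48 h was called (-0.55; limma, adjusted p = 0.0362), a call lost without replicate 2 (-0.50, 0.0869), and 6 h in DHL6 gave -0.60 (0.0525). On 210662_at, with 26 of 29 arrays at or below 3.15, no R406 comparison was called. At 6 h the DHL6 response minus that of DHL4 was -0.89 on 210663_s_at (limma, adjusted p = 0.0229), -0.92 on 204385_at (0.052) and 0.54 on 210662_at (0.434). The DHL4 arrays of 6 h overlapped DMSO on 210663_s_at and 204385_at and were below it on 210662_at. With DMSO 210663_s_at and 210662_at were called lower in DHL6 than in DHL4 (-0.51 and -0.68; limma, adjusted p = 0.0481 and 0.0387), which 217388_s_at was not. After the mean of each line was subtracted, these 3 correlated with 217388_s_at at 0.81, 0.54 and 0.04 over the 29 arrays.

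QPRT, quinolinate phosphoribosyltransferase, makes nicotinate mononucleotide from quinolinate. In DHL4 its single probe set read 5.32 and 5.74 with DMSO, and 4.74, 5.13 and 4.74 at 2 h. It read 4.51, 4.60 and 4.59 at 6 h, 5.68, 4.84 and 4.57 at 24 h, and 4.66, 4.82 and 4.55 at 48 h. All arrays of 2, 6 and 48 h were below both DMSO arrays, and replicate 1 of 24 h lay between them. The fall was -0.97 at 6 h, or 1.96-fold (SE 0.23; limma, adjusted p = 0.00346), and -0.86 at 48 h, or 1.81-fold (limma, adjusted p = 0.0168). Without DMSO replicate 2 neither was called (-0.76 with limma adjusted p = 0.116, and -0.65 with 0.305), and the 48 h call was also lost without 48 h replicate 3 (-0.79, 0.0714). The values at 2 and 24 h were -0.66 (limma, adjusted p = 0.0667) and -0.50 (limma, adjusted p = 0.103). They were called without 2 h replicate 2 (-0.79, limma adjusted p = 0.0385) and without 24 h replicate 1 (-0.83, 0.00132).

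In DHL6 QPRT read 3.88, 3.95 and 3.70 with DMSO and between 3.49 and 4.36 on the 12 R406 arrays, which overlapped DMSO at each time. Its differences there were 0.00, -0.22, 0.17 and 0.25 (SE 0.20; limma, adjusted p = 0.998, 0.66, 0.701 and 0.407), and 0.39 at 48 h without replicate 2 (0.203). With DMSO QPRT was 1.69 ± 0.23 lower in DHL6 than in DHL4, or 3.23-fold (limma, adjusted p = 2.07e-06), the 1 enzyme of the 5 called between the lines, where 20.6% of genes were called. This order was opposite to that of KMO. The DHL6 levels were not far above 3.15, the top of the dim range, so a fall of QPRT in that line may be compressed. The difference in response at 48 h, DHL6 minus DHL4, was 1.11 ± 0.30 (limma, adjusted p = 0.0315, with 5.08% of genes called). At 2, 6 and 24 h it was 0.66, 0.75 and 0.68 (limma, adjusted p = 0.438, 0.171 and 0.151). Leaving out each array in turn gave 0.90 to 1.31 at 48 h, with limma adjusted p from 0.0111 to 0.239. The call was lost without DHL4 DMSO replicate 2, DHL6 DMSO replicate 1 or 3, or replicate 1 or 3 of either line at 48 h. With the replicate number as a block it was also lost (1.02; limma, adjusted p = 0.0577). At 24 h the difference was called without DHL4 24 h replicate 1 (1.001; limma, adjusted p = 0.00509).

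By group mean QPRT ran in DHL4 from 5.53 ± 0.29 with DMSO through 5.03 ± 0.58 at 24 h, 4.87 ± 0.22 at 2 h and 4.67 ± 0.14 at 48 h to 4.56 ± 0.05 at 6 h (SD, n = 3, and 2 for DMSO). In DHL6 it ran from 4.09 ± 0.27 at 48 h through 4.01 ± 0.29 at 24 h and 3.84 with DMSO and at 2 h (SD 0.13 and 0.12) to 3.62 ± 0.12 at 6 h. Within a line each group overlapped the next, and every DHL4 array lay above every DHL6 array. No change between 24 and 48 h was called in QPRT (-0.35 in DHL4 and 0.08 in DHL6; limma, adjusted p = 0.239 and 0.874). For that step none of the 5 enzymes was called in DHL4 or DHL6, none had an unadjusted p below 0.05, and 25.1% and 6.72% of all genes were called.

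IDO1, the interferon-inducible first enzyme, read 2.37 to 3.05 over the 29 arrays with a median of 2.63, and its group means were 2.50 to 2.76. TDO2, the first enzyme best known from liver, read 2.39 to 3.18 with a median of 2.57 and group means of 2.45 to 2.98. HAAO, which makes the precursor of quinolinate, read 2.89 to 3.97 with a median of 3.27 and group means of 3.11 to 3.51, and 8 of its 29 arrays were at or below 3.15. No R406 difference was called in these 3: they ran from -0.11 to 0.14 for IDO1, from -0.18 to 0.35 for TDO2 and from -0.26 to 0.18 for HAAO. Their smallest adjusted p was 0.202 (limma, TDO2 in DHL4 at 2 h). At such intensities a change in either direction may be compressed, and the arrays do not show whether these RNAs are absent. The responses of the lines differed by call in none of the 5 enzymes at 2 h or 24 h, where 1.76% and 16.4% of genes were called and QPRT alone had an unadjusted p below 0.05.

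The genes whose profile was most like that of KMO were found by Pearson correlation over the 29 arrays after the mean of each line was subtracted, among 761 genes whose group means spanned at least 1 log2 unit in each line. The closest were PHACTR1 (0.959), IRAG2 (0.917), IDI1 (0.909), SC5D (0.907) and CREM (0.901). PHACTR1 binds actin and protein phosphatase 1, IDI1 and SC5D are enzymes of the sterol pathway, and CREM is a cAMP-responsive transcription factor. The log2 differences of PHACTR1 were -2.14, -2.03, -2.34 and -2.01 in DHL4 and -2.29, -3.53, -3.69 and -3.39 in DHL6 at 2, 6, 24 and 48 h. The most opposite were PIK3CD (-0.888), SLC2A5 (-0.884), BMP7 (-0.879), TCL1A (-0.853) and PYHIN1 (-0.848). PIK3CD encodes a lymphocyte PI3-kinase subunit and SLC2A5 a fructose transporter, and for PYHIN1 the correlation was -0.929 in DHL6 and -0.427 in DHL4. The points share group means and arrays, and the correlations are a description.

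**Figure D4:**
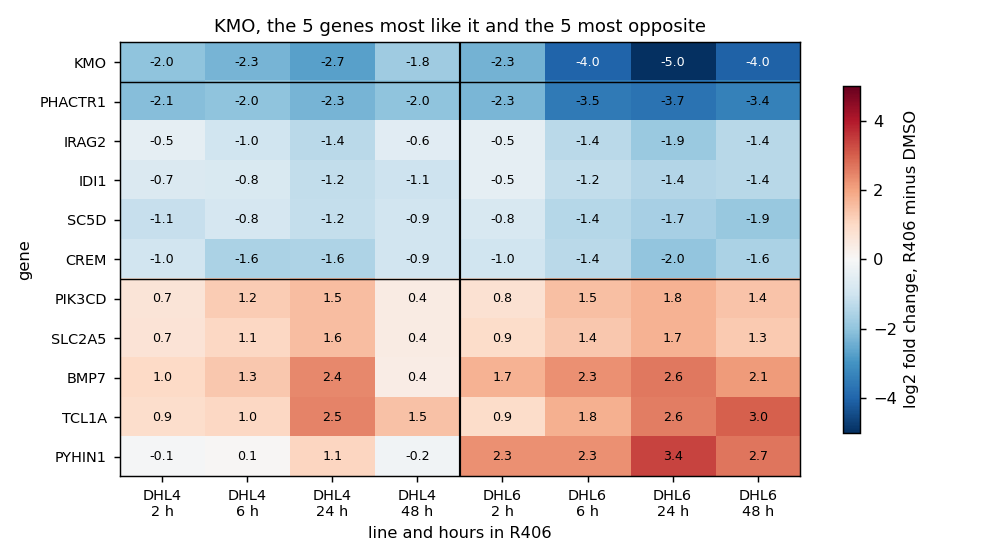
Log2 difference from DMSO (colour and printed value) at 2, 6, 24 and 48 h of R406 in each line, for KMO, the 5 genes most like it and the 5 most opposite to it by correlation over 29 arrays. KMO ranges from -1.77 to -4.98; PHACTR1 is nearest in size, and the most opposite genes are mostly above 0.

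The other 5 enzymes were less like KMO. KYNU correlated with it at 0.622 over all arrays, at 0.373 in DHL4 and 0.764 in DHL6, and came 188th of the 761 genes. For QPRT the value was 0.601 in DHL4 and -0.291 in DHL6, or 0.08 over all. For IDO1, TDO2 and HAAO it was -0.265, -0.146 and -0.075, at levels where little varied.

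The neighbours of KMO on chromosome 1 were examined with the RefSeq order of protein-coding genes. OPN3, an opsin gene, is next to KMO and its span overlaps that of KMO. Its log2 differences were -0.61, -0.97, -0.62 and -0.94 in DHL4 and -0.64, -0.84, -0.86 and -0.29 in DHL6 at 2, 6, 24 and 48 h, from DMSO levels of 3.95 and 4.89. The calls were those at 6 h in DHL4 (limma, adjusted p = 0.0357) and at 24 h in DHL6 (limma, adjusted p = 0.033). The first was lost without any of the 5 arrays compared (-1.16 to -0.77), and the second without DHL6 DMSO replicate 1, 2 or 3 or 24 h replicate 2 or 3 (-1.01 to -0.77). Whether its probes and those of KMO read the same transcripts was not tested. RGS7 on the other side and CHML beyond OPN3 had no call and DMSO levels of 2.65 to 3.04. FH and WDR64 were not analysed here.

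Among the pathway's other enzymes, 3 of 7 listed genes were measured: KYAT1, KYAT3 and GOT2, transaminases that turn kynurenine into kynurenic acid. At 24 h in DHL4 all 3 fell, with a median of -1.21 against 0.03 over all genes, of which 29.5% were called and 16.5% lower. GOT2, better known as the mitochondrial aspartate aminotransferase, fell by 1.32 ± 0.12 (limma, adjusted p = 1.49e-09), and KYAT3 fell by 1.21 ± 0.32 (limma, adjusted p = 0.00463). KYAT1 was -0.68 ± 0.25 (limma, adjusted p = 0.0367), a call lost without DHL4 DMSO replicate 1, 24 h replicate 1 or 24 h replicate 3 (-0.96 to -0.40 over the arrays left out). In DHL6 GOT2 rose by 0.41 at 24 h (limma, adjusted p = 0.00772), and the lines' responses differed by 1.72 (limma, adjusted p = 1.31e-08). IDO2, AFMID, AADAT and ACMSD were not analysed here.

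**Figure D5:**
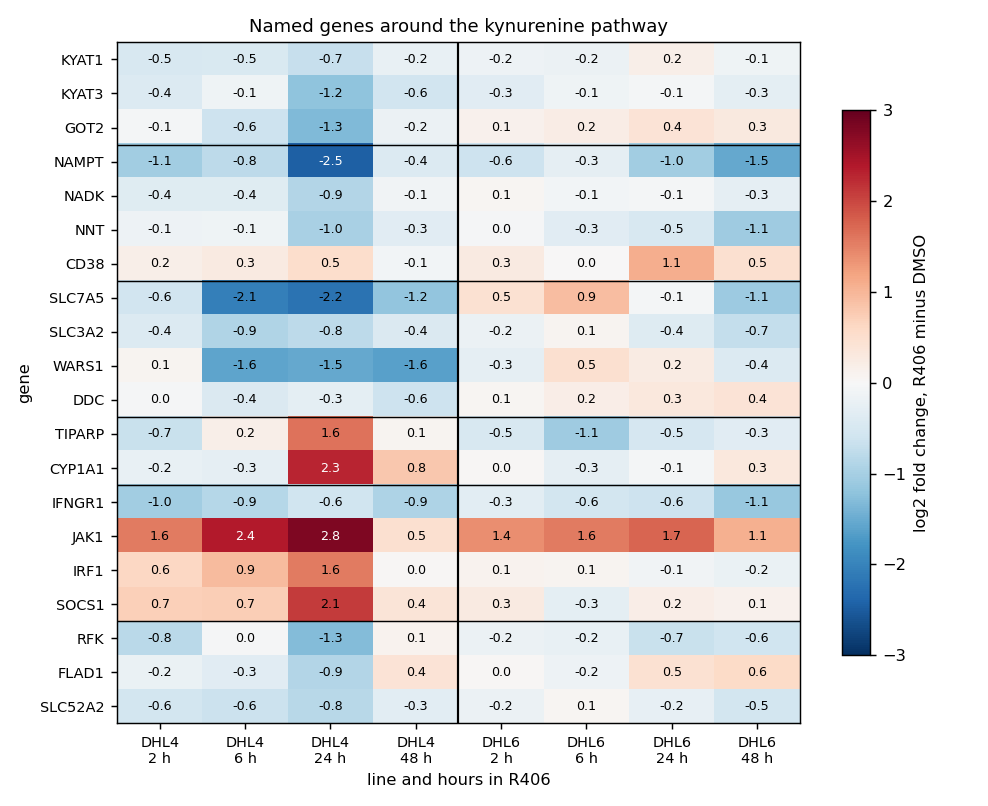
Log2 difference from DMSO (colour and printed value) at 2, 6, 24 and 48 h of R406 in each line, for the named genes of the lists around the kynurenine pathway. At 6 and 24 h GOT2, SLC7A5 and WARS1 are below 0 in DHL4 and above 0 or near it in DHL6, and JAK1 is above 0 throughout.

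Of 7 measured genes that bring in or use tryptophan, 3 fell in DHL4 at 6 h and 2 rose in DHL6, where 12.8% and 8.26% of all genes were called in either direction. SLC7A5, the large neutral amino acid transporter, was -2.06 ± 0.19 in DHL4 (limma, adjusted p = 1.16e-08) and 0.93 ± 0.17 in DHL6 (limma, adjusted p = 0.000423), and the responses differed by 2.98 (limma, adjusted p = 2.11e-08). WARS1, the tryptophanyl-tRNA synthetase, was -1.59 ± 0.15 in DHL4 (limma, adjusted p = 2.3e-08), and its responses differed by 2.08 (limma, adjusted p = 1.46e-07). Its rise in DHL6, 0.49 (limma, adjusted p = 0.0219), was lost without DHL6 DMSO replicate 1 or 3 or 6 h replicate 1 or 2 (0.38 to 0.68). SLC3A2, the partner chain of SLC7A5, was -0.90 in DHL4 (limma, adjusted p = 0.00843), a call lost without either DMSO array (-1.08 to -0.79). At 48 h SLC7A5 fell by 1.19 in DHL4 and fell by 1.08 in DHL6 (limma, adjusted p = 0.000125 and 3.18e-05), or -1.24 in DHL6 without replicate 2.

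Beyond QPRT, NAD is also made from nicotinamide by NAMPT. At 24 h in DHL4, 4 of 11 measured NAD genes fell and 1 rose, where 29.5% of all genes were called and 16.5% lower. The median was 0.05 for the list and 0.03 for all genes. NAMPT was -2.45 ± 0.35 there (limma, adjusted p = 3.4e-06) and -1.54 ± 0.31 in DHL6 at 48 h (limma, adjusted p = 0.000679), and a second NAMPT probe set gave -1.09 and -0.86. Without replicate 2 of DHL6 at 48 h the DHL6 values of the 2 probe sets were -1.98 and -1.13. CD38, which degrades NAD, rose by 0.53 in DHL4 and 1.09 in DHL6 at 24 h (limma, adjusted p = 0.000805 and 2.78e-08). KMO carries FAD, made from riboflavin by RFK and then FLAD1. In DHL4 at 24 h RFK fell by 1.29 ± 0.22 (limma, adjusted p = 3.77e-05). In DHL6 it was called lower at 24 and 48 h (-0.67 and -0.6, limma adjusted p = 0.0225 and 0.0305 over all probe sets). A second RFK probe set gave -0.89 and -1.05 in DHL6 at these times. FLAD1 was -0.88 in DHL4 at 24 h (limma, adjusted p = 0.0137) and 0.45 in DHL6 (0.266). The DHL4 call of FLAD1 was lost without DMSO replicate 1 or 24 h replicate 1 (-1.04 to -0.72).

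Kynurenines can act on the receptors AHR and GPR35, neither of which was called in any R406 comparison. Of the 6 measured genes of this list, 2 targets of AHR rose in DHL4 at 24 h. In that comparison 29.5% of all genes were called in either direction, and 1585 of 12165 were called higher. CYP1A1 rose by 2.29 from a dim level of 3.07 and TIPARP by 1.64 (limma, adjusted p = 4.59e-07 and 3.61e-07). CYP1B1, also of this list, was -0.01 there from a dim level of 2.71 (limma, adjusted p = 0.981). At 2 h in DHL4, where 9.48% of genes were called, TIPARP was lower (-0.66, limma adjusted p = 0.0375). The list had no called rise in DHL6, where 5.29% to 23.3% of all genes were called in either direction over the 4 times. TIPARP fell in DHL6 by 1.07 at 6 h (limma, adjusted p = 0.000178, with 8.26% of genes called). Of 8 measured genes of the interferon-gamma route to IDO1, JAK1 rose by 1.56, 2.37 and 2.80 at 2, 6 and 24 h in DHL4 and by 1.39, 1.56, 1.74 and 1.07 at the 4 times in DHL6 (limma, largest adjusted p of these 7 = 1.83e-05; 1.28 at 48 h in DHL6 without replicate 2). The receptor chains were lower where called: IFNGR1 was -1.04 and IFNGR2 -0.56 in DHL4 at 2 h (limma, adjusted p = 0.043 and 0.0138), both lost without either DMSO array or 2 h replicate 1 or 3 (-1.24 to -0.85 and -0.71 to -0.47). In DHL6 at 48 h they were -1.14 and -0.46 (limma, adjusted p = 0.00536 and 0.011), the first lost without replicate 3 (-0.60, 0.0569). A second, dimmer IFNGR1 probe set gave -0.57 in DHL4 at 2 h (limma, adjusted p = 0.0701). It was called lower at 24 and 48 h in DHL4 (-0.61 and -0.89, limma adjusted p = 0.0192 and 0.00376). In DHL6 it was called lower at the same times (-0.54 and -0.64, limma adjusted p = 0.038 and 0.00853). IFNGR2 was chosen for naming after its values were seen. IRF1 rose by 1.57 in DHL4 at 24 h (limma, adjusted p = 6.53e-05), and had no call at any time in DHL6, while IDO1 itself stayed at or below 3.15. SOCS1, of the same list, rose by 2.1 in DHL4 at 24 h (limma, adjusted p = 1.21e-06 over all probe sets). Its other, dim probe sets gave 0.96, 0.41 and 0.4 there (limma, adjusted p = 0.000159, 0.0707 and 0.109). SOCS1 had no call in DHL6.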

How the data were processed

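The authors deposited log2 expression values made with RMA, per the submitters' processing notes, with the RMA version not given in the sources used here. There were 22277 probe sets for 29 arrays, with values from 1.99 to 13.49, and 62 control probe sets were left out. By the platform annotation 19724 probe sets had 1 gene symbol, 568 several and 1923 none, and 19707 symbols were updated through Entrez identifiers. A gene took its single-symbol probe set of highest mean, leaving 12165 genes, and 4505 genes had several probe sets.

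In R 4.3.3, lmFit and eBayes of limma 3.58.1 fitted the log2 values as 10 group means over all 29 arrays, with 19 residual degrees of freedom and prior degrees of freedom of 5.05. Contrasts were R406 minus DMSO per line and time, the difference of those responses between the lines, DHL6 minus DHL4 in DMSO, and 48 h minus 24 h. P-values were adjusted by Benjamini-Hochberg over all genes per contrast. Standard errors are those of the model, which assumes the same spread in every group of a gene. The number of arrays limits the precision. No 2 arrays were identical. On data simulated for the DHL6 24 h contrast with 12165 genes, 94% of genes changed by 1 log2 unit and 100% of those changed by 2 were called, with 11 calls among unchanged genes.

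The enzymes, gene lists and motifs were chosen with earlier results of these data known. Named were the 6 enzymes; up to 4 called genes of each list, by largest change; 3 protein-coding genes on each side of KMO; the 5 genes most like and most opposite to KMO; and the 3 next to it in mean fall. Replicate numbers were checked for pairing: deviations of same-numbered arrays correlated with a median between -0.06 and 0.02 over pairs of groups, so no block was used. Alternatives were centring on the median, quantile normalization, the mean of all probe sets or all probe sets singly, a filter on dim genes below 5, an intensity trend, each line fitted alone, a replicate block, and leaving out each array.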

Additional observations from a re-analysis of the deposited data

Results flagged for a closer look

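KYNU responded differently in the lines at 6 h: the DHL6 response minus the DHL4 response was -1.51 on the log2 scale (limma, adjusted p = 0.00598). In DHL6 3 of 3 arrays were below their DMSO arrays. In DHL4 3 of 3 were above theirs, but that change was 0.10 and not called (limma, adjusted p = 0.94). Of its other probe sets, 210663_s_at had the difference called (-0.89, limma adjusted p = 0.0229), and 204385_at (-0.92, 0.052) and 210662_at (0.54, 0.434) did not. QPRT responded differently at 48 h, where the same difference was 1.11 (limma, adjusted p = 0.0315); 3 of 3 DHL4 arrays were below both DMSO arrays, and the DHL6 arrays overlapped theirs. That call was lost with a replicate block (1.02; limma, adjusted p = 0.0577) and without any of 7 single arrays (0.90 to 1.31 over those left out, adjusted p up to 0.239). In DHL6 the DMSO mean of QPRT was 3.84, not far above the dim range, so a fall there may be compressed.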

How the results depend on the processing

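Over 1055 alternative values of the 5 tested enzymes (75 comparisons, 10 of them called), 20 lost a call and 7 gained one. None reversed where the main or the alternative value was called. Several alternatives leave a log2 change as it is, so its sign could not reverse in them. These are the intensity trend, the dim filter, each line fitted alone and all probe sets taken singly. A change of sign between uncalled values was not counted as a reversal. Such changes occurred, as for HAAO in DHL4 at 2 h (-0.206 to 0.247 with single arrays left out). Counts of called genes moved by over 1.5 times with all probe sets kept apart, which tests more features: to 1786, 2364, 5785 and 1403 in DHL4 and 971, 1531, 2757 and 4499 in DHL6 at 2, 6, 24 and 48 h, 3087 for the line difference at 24 h, 3816 for DMSO, and 4847 and 1342 for 48 h minus 24 h in DHL4 and DHL6. With DHL6 arrays alone the last was 440. With single arrays left out, the counts ranged from 568 to 1232 (1153 with all) for DHL4 2 h, 954 to 1308 (1555) for 6 h and 416 to 759 (892) for 48 h. They ranged from 102 to 252 (214), 514 to 864 (857) and 236 to 1239 (618) for the line difference at 2, 6 and 48 h, and from 455 to 1450 (817) for 48 h minus 24 h in DHL6, where the highest came without DHL6 48 h replicate 2. The mean of all probe sets of KMO, which includes the dim one, gave -1.44, -2.08 and -1.08 in DHL4 and -3.31, -3.64 and -3.18 in DHL6 at 6, 24 and 48 h. With single arrays left out, KMO in DHL6 at 48 h ranged from -4.87 to -3.48. Median centring and quantile normalization kept KMO lower in all 8 comparisons. The intensity trend changes only the modelled spread, so it could not move these differences.

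The KYNU call in DHL6 at 24 h was lost with DHL6 arrays alone (limma, adjusted p = 0.0728), KYNU in DHL6 at 2 h was called after quantile normalization (-0.65, 0.0199), and QPRT in DHL4 at 2 h with the dim filter (0.0365). The mean of all probe sets gave a called KYNU difference between the lines in DMSO (limma, adjusted p = 0.017). Quantile normalization moved the share of higher calls from 28.2% to 45.8% in DHL4 at 2 h, from 38.0% to 48.0% and 36.1% to 47.8% in DHL6 at 6 and 48 h (20.9% after median centring), from 24.6% to 45.6% for 48 h minus 24 h in DHL6, and from 69.6% to 57.1% and 31.9% to 48.4% for the line difference at 2 and 48 h. The replicate numbers are shared only as numbers: with a replicate block 1 enzyme's call changed, that of QPRT for the line difference at 48 h (1.02; limma, adjusted p = 0.0577), and counts went from 1153 to 947 at most in proportion among the R406 comparisons. Causes of these shifts were not tested. Intensities near the dim range bound what IDO1, TDO2 and HAAO can show, and may bound a fall of QPRT in DHL6. DHL4 has 2 DMSO arrays.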
